A study of Homo sapiens with 42 samples.

Results

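Counts over the 7 regions of the 45S pre-rRNA were compared in nuclear RNA of 4 AC16 lines that carried RPL3L variants and of the line that carried wild-type RPL3L. These are 10 of the 12 nuclear libraries and of the 42 libraries of the series, chosen by their labels: all nuclear libraries of G27D, R161W, T189M, D308N and wild-type RPL3L (RPL3L-WT), 2 each. AC16 is a human line made by fusing cells of the adult heart ventricle with transformed fibroblasts, and the labels call it cardiomyocyte-like. All 5 lines also carried a lentiviral, doxycycline-inducible hairpin against RPL3, were selected with hygromycin, received a lentiviral RPL3L construct, were sorted by their fluorescence and were given doxycycline at 1 ug/ml. So RPL3L-WT was not an untreated line: it too had the hairpin, the construct and the drug. The shRPL3 line, with the hairpin and the drug but no RPL3L construct, had 2 further nuclear libraries, used here only for reference. Nuclear RNA was sequenced with neither polyA selection nor removal of rRNA. Each name gives the residue of RPL3L that was replaced. The labels name no separate lines within a genotype, so genotype and line cannot be told apart. Whole-cell libraries of RPL3L-WT, G27D, R161W and T189M fell into 2 kinds by their construct transcripts (below). The kind of the nuclear libraries is unknown, since their counts cover rRNA regions only, and it could differ between lines. The labels do not tie the replicates to separate cultures, so p-values measure only the spread between these libraries, which may be technical.

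RNA polymerase I transcribes the 45S pre-rRNA in the nucleolus as a single molecule. It holds the mature 18S, 5.8S and 28S rRNAs, separated and flanked by transcribed spacers that are cut away: the 5' external spacer (5'ETS), the internal spacers ITS1 and ITS2, and the 3' external spacer (3'ETS). The small-subunit processome directs cleavage in the 5'ETS, cleavage in ITS1 separates the precursors of the small and large subunits, and ITS2 is removed by endonuclease cleavage and trimming by the exosome. RPL3 is a protein of the large subunit that joins the early precursor, and RPL3L is its paralog of heart and skeletal muscle. In nuclear RNA, spacer counts come from precursors and their cut fragments, whereas counts in the mature regions come from precursors and finished rRNA together.

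The regions add up to the 13351 bases of RefSeq's RNA45SN1 gene at chr21:8433222-8446572 (plus strand, GRCh38.p14). This is 1 of several near-identical rDNA copies, so a count belongs to the repeat and not to that copy. Counted from the 5' end, the 5'ETS spans positions 1 to 3654, 18S spans 3655 to 5523, ITS1 spans 5524 to 6600, 5.8S spans 6601 to 6757, ITS2 spans 6758 to 7924, 28S spans 7925 to 12990 and the 3'ETS spans 12991 to 13351. The spacers make up 6259 of the bases and the mature regions 7092. Sequences for a spacer and a mature region are shown because the results turn on the contrast between those kinds. RefSeq annotates the hairpin of the microRNA MIR10396B inside the 5'ETS, at chr21:8436324-8436374 (GRCh38.p14, plus strand, precursor positions 3103 to 3153). At 51 bases it is 86.27% G and C. The GENCODE 29 entry RNA5-8SN2 covers 153 of the 157 bases of 5.8S at chr21:8439823-8439975 (GRCh38, plus strand, precursor positions 6602 to 6754) and is 57.52% G and C. Its last 20 bases, on the side next to ITS2, are in capitals.
MIR10396B hairpin, 5'ETS: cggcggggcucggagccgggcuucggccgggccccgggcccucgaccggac
RNA5-8SN2, 5.8S: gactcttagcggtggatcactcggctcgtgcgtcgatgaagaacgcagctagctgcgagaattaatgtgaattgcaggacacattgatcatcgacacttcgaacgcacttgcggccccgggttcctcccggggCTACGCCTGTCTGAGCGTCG

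The 10 libraries held 8094182 to 14698375 counts over the 7 regions, with the fewest, 2171 to 7501, in the 3'ETS. A share is the percentage of a library's counts that fell in a region, and the shares of a library add up to 100, so a higher share of 1 region lowers the others. The widest 95% interval for counting error (Wilson) reached 0.0335 percentage points on either side for 28S and 0.0021 for the 3'ETS. Replicates of every line differed by more than counting error, by up to 1.50-fold for 5.8S in D308N and 1.40-fold for the 3'ETS in RPL3L-WT. In whole-cell polyA libraries of the same 5 lines, 0 of 9 cardiomyocyte markers had a median of at least 1 TPM (summed level 0.296 to 2.17 TPM), with MYH6, MYH7, NPPA and NKX2-5 at a median of 0. All 6 fibroblast markers did (summed level 3997 to 5968 TPM). The labelled cardiomyocyte-like character was thus not seen in these markers.

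Spacer RNA was a larger part of nuclear rRNA in G27D, R161W and D308N than in RPL3L-WT. The 4 spacers together took 4.83 and 4.77% of the counts in RPL3L-WT 1 and 2, 8.22 and 8.59% in G27D, 6.54 and 6.26% in R161W, 5.03 and 5.61% in T189M, and 9.46 and 8.37% in D308N. All 8 variant libraries thus lay above both RPL3L-WT libraries. The means were 4.80 ± 0.0399% (SD, n = 2) in RPL3L-WT, 8.40 ± 0.259% in G27D (1.75-fold), 6.40 ± 0.195% in R161W (1.33-fold), 5.32 ± 0.408% in T189M (1.11-fold) and 8.91 ± 0.774% in D308N (1.86-fold), each of 2 libraries. The same contrast as a ratio of counts per base, spacers over mature regions, needs no total. It averaged 0.0571 in RPL3L-WT, 0.104 in G27D, 0.0775 in R161W, 0.0637 in T189M and 0.111 in D308N. In limma over 16 such ratios it was higher than in RPL3L-WT by 0.86 on the log2 scale in G27D (SE 0.10, adjusted p = 3.59e-05), by 0.44 in R161W (adjusted p = 0.00971) and by 0.95 in D308N (adjusted p = 3.61e-05). In T189M the difference was 0.16 (95% interval -0.08 to 0.39, adjusted p = 0.317), which did not pass the threshold of 0.05. The R161W call was lost without either of its libraries (0.41, adjusted p = 0.0928, without R161W 1 and 0.47, adjusted p = 0.0524, without R161W 2), and without R161W 1 limma called 0 of its 16 ratios. In such bulk shares, more spacer RNA and less mature rRNA cannot be told apart, nor can a change in all cells and a change in some.

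**Figure D1:**
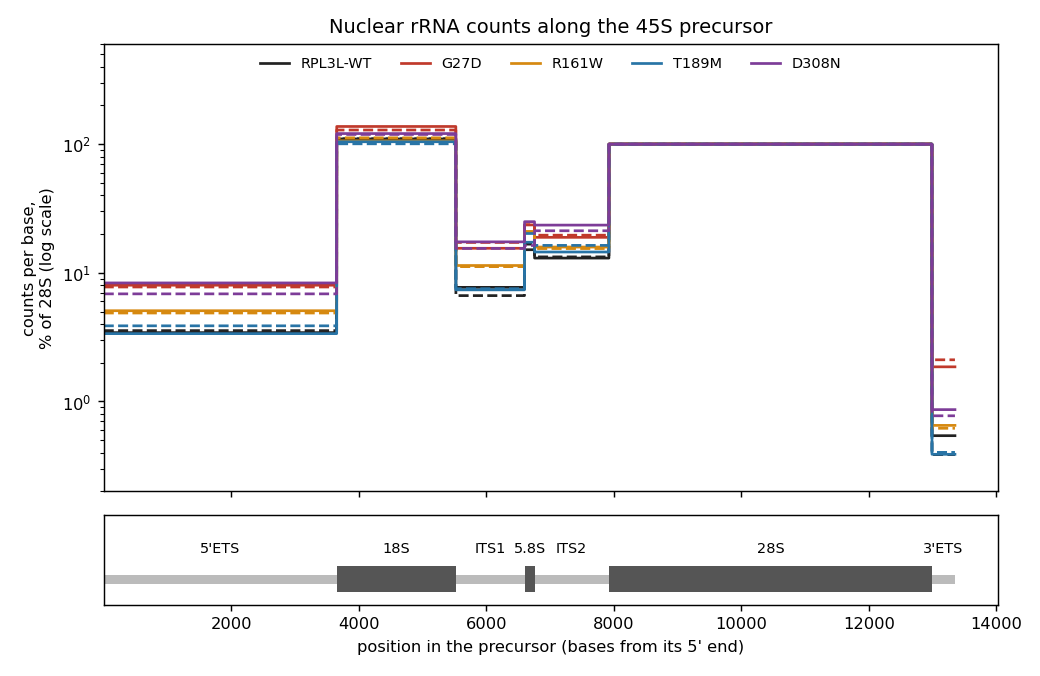
Counts per base of each region, as a percentage of those of 28S in the same library (log axis), along the precursor in bases from its 5' end; solid and dashed lines are libraries 1 and 2 of each line, and the bar below marks mature regions (dark) and spacers (light). G27D (red) and D308N (purple) run above RPL3L-WT (black) in the 4 spacers, and T189M (blue) runs closer to it, above it at 5.8S and ITS2.

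Per base, the order of the spacers was the same in all 10 libraries: ITS2 above ITS1, ITS1 above the 5'ETS, and the 3'ETS lowest. In RPL3L-WT 1 and 2, ITS2 stood at 13.0 and 13.3% of the counts per base of 28S, ITS1 at 7.71 and 6.65%, the 5'ETS at 3.43 and 3.55% and the 3'ETS at 0.542 and 0.386%. In 9 of the 10 libraries 5.8S lay above ITS2 per base. D308N 2 was the exception, with 5.8S at 16.3% and ITS2 at 21.2% of 28S. In RPL3L-WT 1 and 2, 5.8S stood at 15.1 and 16.7% of 28S per base, although the same precursor holds both. Whether so short a region was recovered as fully as 28S was not tested, which bears on all ratios with 5.8S.

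The 5'ETS, the leader whose cleavage opens the small-subunit pathway, rose about as much in G27D as in D308N. Its share was 1.67 and 1.73% in RPL3L-WT 1 and 2, 3.50 and 3.45% in G27D, 2.45 and 2.32% in R161W, 1.66 and 1.91% in T189M, and 3.75 and 3.14% in D308N. All libraries of G27D, R161W and D308N lay above both of RPL3L-WT, whereas those of T189M overlapped them. In edgeR's quasi-likelihood test the log2 fold change against RPL3L-WT was 1.03 in G27D (SE 0.10, adjusted p = 8.57e-05), 0.49 in R161W (SE 0.10, adjusted p = 0.00833) and 1.02 in D308N (SE 0.10, adjusted p = 1.39e-04). It was 0.07 in T189M (95% interval -0.17 to 0.31, adjusted p = 0.496). Over all 7 regions edgeR called 6 in G27D (85.7%), 3 in R161W (42.9%), 5 in D308N (71.4%) and 0 in T189M (0.00%), so most regions of G27D and D308N differed and a call there does not set the 5'ETS apart. These 4 comparisons share the 2 RPL3L-WT libraries. As a share of spacer counts alone, the log2 fold change of the 5'ETS was 0.22 in G27D (adjusted p = 0.00276) and 0.12 in D308N (adjusted p = 0.0461), and in R161W it did not pass (0.07, adjusted p = 0.229). The R161W call was also lost without R161W 1.

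ITS1, whose cleavage parts the 18S precursor from those of 5.8S and 28S, moved by much the same amount as the 5'ETS. RPL3L-WT 1 and 2 had 1.11 and 0.954% of their counts there, G27D 2.00 and 2.26%, R161W 1.62 and 1.57%, T189M 1.07 and 1.10%, and D308N 2.30 and 2.09%. Again the libraries of G27D, R161W and D308N were all above RPL3L-WT, and those of T189M lay between its 2 libraries. The log2 fold changes were 1.05 in G27D (SE 0.09, edgeR adjusted p = 7.66e-05), 0.63 in R161W (SE 0.09, adjusted p = 0.00287), 1.09 in D308N (SE 0.09, adjusted p = 1.19e-04) and 0.07 in T189M (95% interval -0.15 to 0.30, adjusted p = 0.496). As a share of spacer counts the values were 0.24 in G27D (adjusted p = 0.0164) and 0.20 in D308N (adjusted p = 0.0461), and that of R161W did not pass (0.21, adjusted p = 0.0506).

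ITS2, the spacer between 5.8S and 28S in the large-subunit precursor, was the spacer in which every variant library exceeded both RPL3L-WT libraries by share, T189M included. Its share was 2.02 and 2.07% in RPL3L-WT 1 and 2, 2.64 and 2.79% in G27D, 2.44 and 2.35% in R161W, 2.28 and 2.58% in T189M, and 3.37 and 3.10% in D308N. D308N was the highest line. The log2 fold changes of the share were 0.66 in D308N (SE 0.07, edgeR adjusted p = 1.50e-04), 0.41 in G27D (SE 0.07, adjusted p = 0.0017), 0.23 in R161W (SE 0.07, adjusted p = 0.0389) and 0.25 in T189M (SE 0.07, adjusted p = 0.0787). As a share of spacer counts alone, ITS2 was lower than in RPL3L-WT in D308N (-0.23), G27D (-0.40) and R161W (-0.19), all past the threshold. The G27D and R161W calls were lost with TMM (0.22 and 0.23, adjusted p = 0.0732 and 0.063). With DESeq2's size factors these differences were -0.08 each and did not pass, and the R161W call was also lost with the replicate number as a block and without either library of RPL3L-WT, G27D or R161W.

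The 3'ETS, the short trailer removed first from the 3' end, separated G27D from every other variant. The shares were 0.0261 and 0.0186% in RPL3L-WT 1 and 2, 0.0803 and 0.0927% in G27D, 0.0311 and 0.0291% in R161W, 0.0189 and 0.0196% in T189M, and 0.0384 and 0.0350% in D308N. Both G27D libraries were above all 8 others. The log2 fold change was 1.95 in G27D (SE 0.16, edgeR adjusted p = 7.66e-05) and 0.72 in D308N (SE 0.16, adjusted p = 0.00649). It was 0.43 in R161W (SE 0.16, adjusted p = 0.0592) and -0.21 in T189M (95% interval -0.60 to 0.18, adjusted p = 0.407), neither past the threshold. With TMM the R161W value passed (0.43, adjusted p = 0.0309), as it did with all 12 libraries, among regions of at least 200 bases and without RPL3L-WT 1. As a share of spacer counts the G27D value was 1.15 (adjusted p = 1.84e-04). The D308N value turned to -0.17 as a share of spacer counts and did not pass there, nor with DESeq2's size factors.

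**Figure D2:**
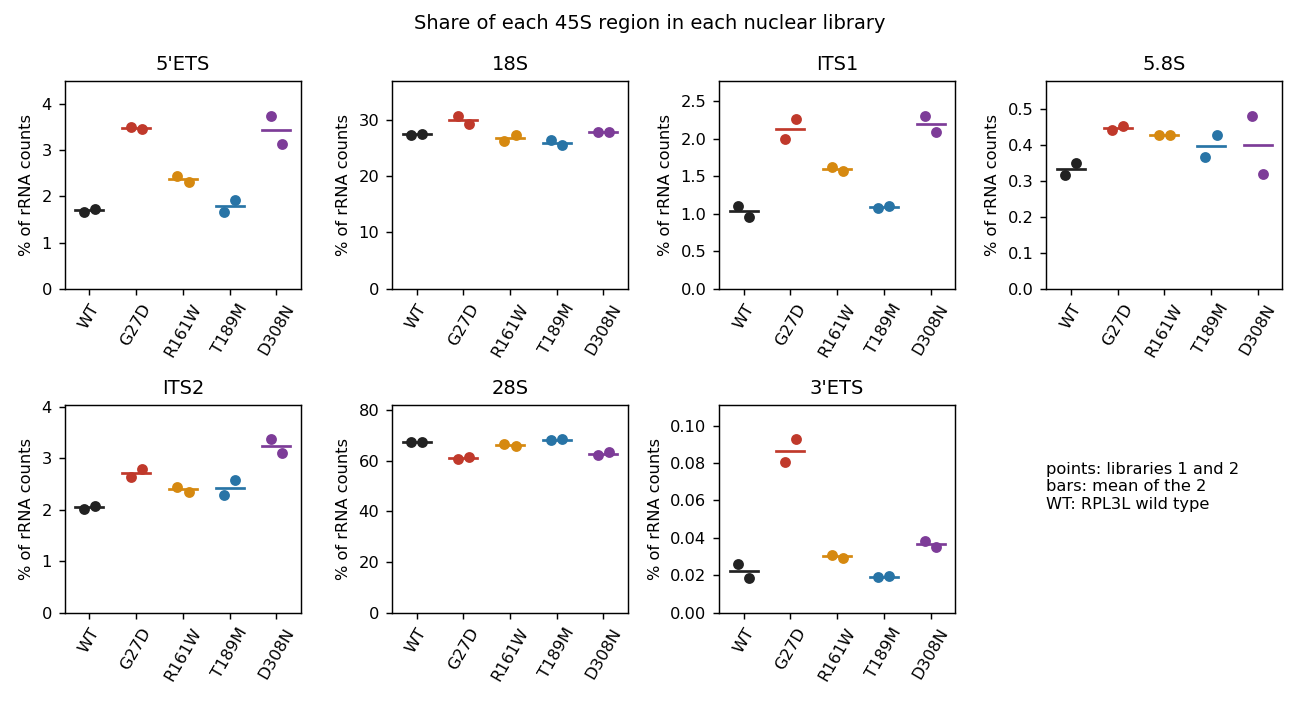
Share of each region (% of the rRNA counts of the library; each panel has its own axis from 0) in the 2 libraries of each line, with bars at the mean. Libraries of G27D and D308N lie above those of RPL3L-WT (WT) in all 4 spacers on this scale of all rRNA counts, and G27D stands alone in the 3'ETS at 0.0803 and 0.0927%.

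Among the mature rRNAs, 28S, the large-subunit rRNA, took a smaller share in G27D and D308N. It took 67.5% in each RPL3L-WT library, 60.7 and 61.7% in G27D, 66.9 and 66.0% in R161W, 68.3 and 68.5% in T189M, and 62.3 and 63.5% in D308N. The log2 fold change was -0.14 in G27D (SE 0.03, edgeR adjusted p = 0.0017) and -0.10 in D308N (SE 0.03, adjusted p = 0.00899), and the D308N call was lost without either RPL3L-WT library or without D308N 1. For 18S, the small-subunit rRNA, the shares were 27.3 and 27.4% in RPL3L-WT, 30.7 and 29.3% in G27D, 26.2 and 27.3% in R161W, 26.3 and 25.4% in T189M, and 27.8% in each D308N library. In edgeR the 18S share was higher in G27D by 0.13 on the log2 scale (SE 0.04, adjusted p = 0.0125), but -0.06 with TMM. That call was also lost without either RPL3L-WT library or without G27D 1. DESeq2, with its own size factors, called 18S lower in G27D (-0.35, adjusted p = 1.88e-05), D308N (-0.46, adjusted p = 1.75e-08) and R161W (-0.34, adjusted p = 7.61e-05). It also called 28S lower in R161W (-0.33, adjusted p = 4.88e-05). The direction of 18S in G27D thus depends on the scaling. The ratio of 18S to 28S per base has no such dependence: it was 1.10 in each RPL3L-WT library, 1.37 and 1.29 in G27D, 1.06 and 1.12 in R161W, 1.04 and 1.01 in T189M, and 1.21 and 1.19 in D308N. G27D was higher than RPL3L-WT by 0.27 (SE 0.09, limma adjusted p = 0.0156; 0.23 and adjusted p = 0.0971 without G27D 1), and D308N by 0.12 (95% interval -0.08 to 0.33, adjusted p = 0.242), which did not pass.

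The share of the 5.8S rRNA, which pairs with 28S in the finished subunit, passed in no line with all 10 libraries. Its share was 0.316 and 0.349% in RPL3L-WT 1 and 2, 0.443 and 0.452% in G27D, 0.429% in each R161W library, 0.366 and 0.429% in T189M, and 0.482 and 0.321% in D308N. The log2 fold changes of the share lay between 0.26 and 0.43, with edgeR adjusted p from 0.0577 in G27D to 0.407 in T189M. The libraries of D308N lay far apart, 1 above both of RPL3L-WT and 1 between them. The call changed with the libraries used: without D308N 1 or without D308N 2, 5.8S passed in G27D (0.43, adjusted p = 0.00398) and R161W (0.37, adjusted p = 0.0157), with all 12 nuclear libraries it passed in G27D (adjusted p = 0.0401), and without D308N 2 it passed in D308N (0.53, adjusted p = 0.00495). With DESeq2's size factors the G27D value was -0.06 and the D308N value -0.23, neither past the threshold, so the direction also depends on the scaling. Per base over 28S, 5.8S was higher than in RPL3L-WT in G27D (0.57, SE 0.17, limma adjusted p = 0.0104; lost without RPL3L-WT 1), and did not pass in R161W (0.39, adjusted p = 0.0827), T189M (0.23, adjusted p = 0.317) or D308N (0.34, adjusted p = 0.107).

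**Figure D3:**
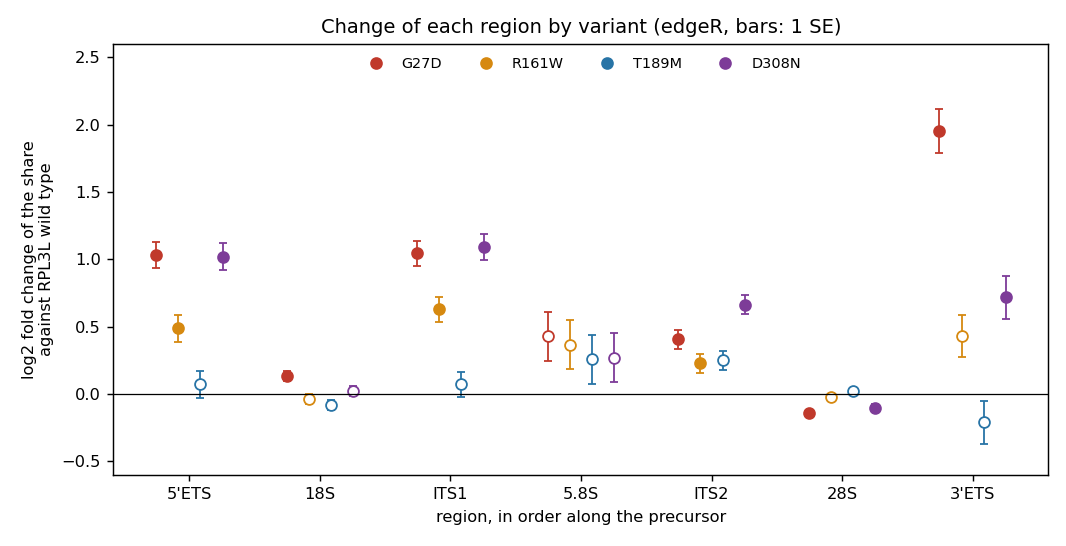
Log2 fold change of the share of each region against RPL3L-WT in each variant line, from edgeR, with bars of 1 SE; filled points have an adjusted p under 0.05. The 3'ETS of G27D is the highest point (1.95), the 5'ETS and ITS1 of G27D and D308N lie near 1, and no point of T189M is filled; the directions of 18S and 5.8S in G27D and of ITS2 depend on the scaling.

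Averaged over the 4 variants, 5 of the 7 regions differed from RPL3L-WT (71.4%): ITS1 by 0.71 (SE 0.08, edgeR adjusted p = 4.84e-04), the 5'ETS by 0.65 (SE 0.08), ITS2 by 0.39 (SE 0.06), the 3'ETS by 0.72 (SE 0.13) and 28S by -0.06 (SE 0.02). As shares of spacer counts, 1 region passed, ITS2, at -0.18. ITS2 was also the only spacer with all 8 variant libraries above both of RPL3L-WT, as in the total over spacers. The average hides the spread described next.

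The proportions of the regions to each other in nuclear rRNA differed between the lines. For 16 ratios of counts per base, the spread between lines was set against that within them in an exact permutation test of the 945 ways to put 10 libraries into 5 pairs, 1-sided by construction. It called 12 of the 16 (75.0%) at an adjusted p under 0.05. The ratios are built from the same regions and overlap, so these calls are not separate results. ITS2 over the 5'ETS and the 3'ETS over ITS1 had the smallest p that this exact permutation test can give, 0.00106 (adjusted p = 0.00726). With 1 line left out there were 105 groupings, and the smallest possible p of the permutation test was 0.00952. Then 4 ratios passed without G27D, 4 without R161W, 11 without T189M, 11 without D308N and 13 without RPL3L-WT. Several misses without G27D or R161W stood at an adjusted p of 0.0508.

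The ratio of ITS1 to the 5'ETS showed no detectable difference between the lines. It was 2.25 and 1.87 in RPL3L-WT 1 and 2, 1.94 and 2.22 in G27D, 2.25 and 2.29 in R161W, 2.19 and 1.94 in T189M, and 2.09 and 2.26 in D308N (p = 0.655, exact permutation test over 945 groupings). Every variant overlapped RPL3L-WT. Against RPL3L-WT the log2 ratio differed by 0.02 in G27D (95% interval -0.26 to 0.29, limma), 0.15 in R161W (-0.13 to 0.42), 0.01 in T189M (-0.26 to 0.28) and 0.08 in D308N (-0.19 to 0.35). Together these intervals reach from -0.26 to 0.42, so differences within that range were not excluded.

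The ratio of ITS2 to the 5'ETS, in contrast, ordered the lines. It was 3.80 and 3.74 in RPL3L-WT 1 and 2, 2.36 and 2.53 in G27D, 3.13 and 3.17 in R161W, 4.31 and 4.22 in T189M, and 2.81 and 3.09 in D308N. No line overlapped another, with G27D lowest, then D308N, R161W, RPL3L-WT and T189M. Against RPL3L-WT the log2 difference was -0.63 in G27D (SE 0.09, limma adjusted p = 1.24e-04) and -0.35 in D308N (SE 0.09, adjusted p = 0.00742). It was -0.26 in R161W (adjusted p = 0.0526) and 0.18 in T189M (adjusted p = 0.275), neither past the threshold. The neighbours D308N and R161W differed by -0.09 (SE 0.09, adjusted p = 0.45), which did not pass. T189M and R161W, on either side of RPL3L-WT, differed by 0.44 (SE 0.09, adjusted p = 0.00278). ITS2 over ITS1 was lower in G27D (-0.64), R161W (-0.41) and D308N (-0.43), with limma adjusted p of 2.86e-04, 0.0151 and 0.00568. The R161W call was lost without either of its libraries or without RPL3L-WT 2.

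The 3'ETS over ITS1 was higher in G27D and lower in D308N than in RPL3L-WT. It was 0.0704 and 0.0581 in RPL3L-WT 1 and 2, 0.120 and 0.122 in G27D, 0.0572 and 0.0554 in R161W, 0.0527 and 0.0535 in T189M, and 0.0497 and 0.0501 in D308N. The libraries of the other variants all lay below those of RPL3L-WT. In limma the difference was 0.92 on the log2 scale in G27D (SE 0.11, adjusted p = 2.95e-05) and -0.36 in D308N (SE 0.11, adjusted p = 0.0122). Thus the 3'ETS share of D308N rose by less than its ITS1 share. The values of R161W (-0.18, adjusted p = 0.183) and T189M (-0.27, adjusted p = 0.238) did not pass.

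**Figure D4:**
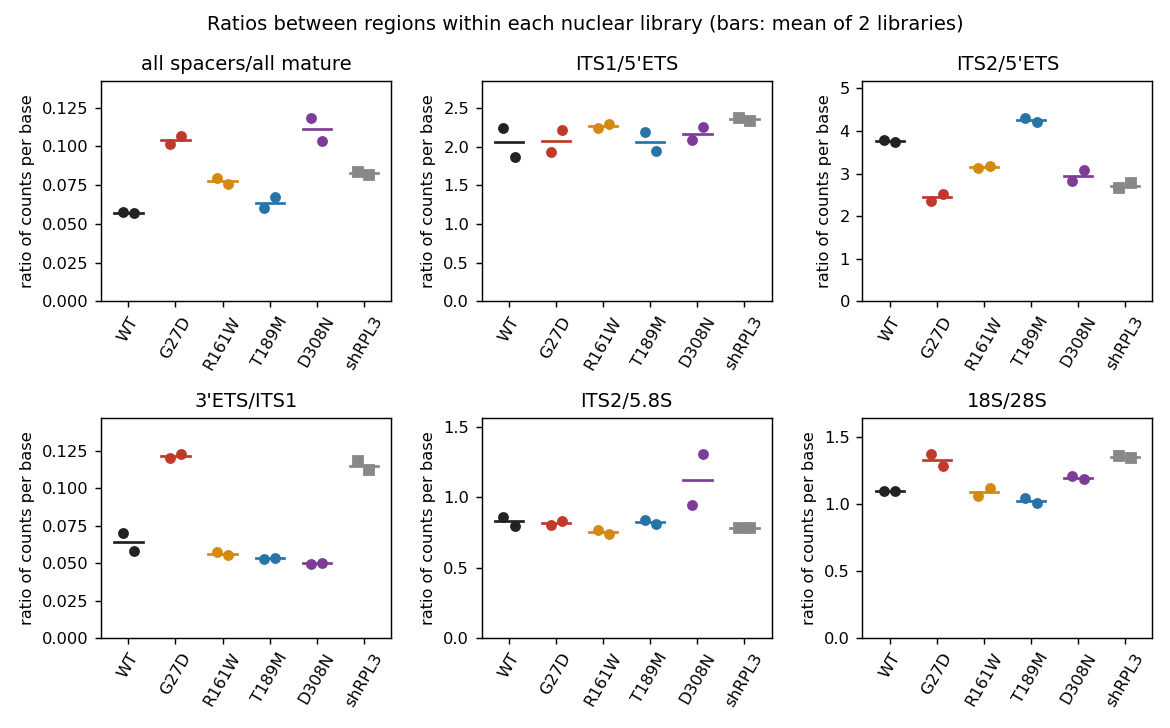
Ratios of counts per base between regions in the 2 libraries of each line (each axis from 0), with bars at the mean; grey squares are shRPL3, the line without an RPL3L construct. ITS1 over the 5'ETS stays between 1.87 and 2.38 in all 12 libraries, whereas the 3'ETS over ITS1 is near 0.12 in G27D and shRPL3 and at or below 0.0704 elsewhere.

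Set against the mature rRNA beside them, the spacers of G27D and D308N were again higher than in RPL3L-WT, apart from ITS2 over 5.8S in G27D. ITS1 over 5.8S was higher by 0.62 in G27D (limma adjusted p = 0.00509) and by 0.85 in D308N (adjusted p = 0.00102), as log2 values. The G27D call was lost without RPL3L-WT 2 (0.44). In R161W (0.26, adjusted p = 0.197) and T189M (-0.18, adjusted p = 0.345) this ratio did not pass. The 5'ETS over 18S was higher by 0.90 in G27D, 0.52 in R161W and 0.99 in D308N on the log2 scale, and ITS1 over 18S by 0.92, 0.67 and 1.07 (all with limma adjusted p of 0.00971 or less), with both R161W calls lost without R161W 1. The 3'ETS over 28S was higher by 2.11 in G27D (adjusted p = 9.99e-07), 0.84 in D308N (adjusted p = 7.40e-04) and 0.47 in R161W (adjusted p = 0.033). That R161W call was lost without any 1 library of G27D, R161W or T189M or without RPL3L-WT 2. ITS2 over 28S was 0.130 and 0.133 in RPL3L-WT 1 and 2, 0.189 and 0.196 in G27D, 0.159 and 0.154 in R161W, 0.145 and 0.163 in T189M, and 0.235 and 0.212 in D308N. All variant libraries were above RPL3L-WT, and it passed in G27D (0.55, adjusted p = 4.37e-04) and D308N (0.76, adjusted p = 7.20e-05). The values of R161W (0.25, adjusted p = 0.0727) and T189M (0.23, adjusted p = 0.25) did not pass. ITS2 over 5.8S was higher in D308N alone among the 4 tests, at 0.941 and 1.30 against 0.861 and 0.796 in RPL3L-WT (0.42, SE 0.14, adjusted p = 0.0209). D308N was also higher than G27D in this ratio by 0.44 (adjusted p = 0.0218), than R161W by 0.56 (adjusted p = 0.00639) and than T189M by 0.43 (adjusted p = 0.025). The low 5.8S share of D308N 2 moves with it: without that library the difference from RPL3L-WT was 0.18 (adjusted p = 0.141), and without RPL3L-WT 2 it was 0.36 (adjusted p = 0.107). Of the 16 overlapping ratios limma called 13 in G27D (81.2%), 5 in R161W (31.2%), 10 in D308N (62.5%) and 0 in T189M (0.00%).

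Compared with each other, the variants differed in 26 of 42 tests (61.9%), from 3 of 7 regions for D308N against G27D (42.9%) to 6 of 7 for D308N against T189M (85.7%). For G27D and D308N the difference did not pass at the 5'ETS (log2 difference of D308N from G27D -0.01, 95% interval -0.25 to 0.23) or at ITS1 (0.05, interval -0.18 to 0.27). They differed at the 3'ETS, with a log2 difference of -1.24 (SE 0.16, edgeR adjusted p = 0.00119), and at ITS2, where D308N was higher by 0.26 (SE 0.07, adjusted p = 0.0184). The ITS2 call was lost without G27D 1 (0.22) and without D308N 1 (0.19). The remaining call was 18S, lower in D308N (-0.11, edgeR adjusted p = 0.0397). It was lost with TMM, DESeq2 and the replicate block, and without most of the single libraries left out in turn. R161W lay below G27D at the 5'ETS (-0.54, adjusted p = 0.00401), ITS1 (-0.42, adjusted p = 0.00756; lost with TMM and as a share of spacer counts) and the 3'ETS (-1.52, adjusted p = 4.32e-04). T189M lay below R161W at the 5'ETS (-0.42, adjusted p = 0.0105), ITS1 (-0.56, adjusted p = 0.00324) and the 3'ETS (-0.64, adjusted p = 0.0123). Of these, the 5'ETS and 3'ETS calls were lost without R161W 1 and without T189M 1, and the 3'ETS call also as a share of spacer counts. At ITS2 T189M and R161W did not differ past the threshold (0.02, 95% interval -0.15 to 0.19). For the 5'ETS the order was therefore T189M, R161W and then G27D with D308N.

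T189M was the line with no call against RPL3L-WT. edgeR gave 1 region with an unadjusted p under 0.05, ITS2, and DESeq2 called 1 region, 18S, at -0.26 (adjusted p = 0.0082). In limma over the ratios 3 of 16 had an unadjusted p under 0.05. Leaving out RPL3L-WT 2 gave 1 region by edgeR and 5 ratios, and leaving out T189M 1 gave 1 region. A p that misses the threshold does not show that T189M equals RPL3L-WT: the interval of its ITS2 share difference was 0.08 to 0.42.

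The shRPL3 line gives the level of these spacers with the hairpin and no RPL3L construct. Its 4 spacers took 6.79 ± 0.117% of the counts (SD, n = 2), between R161W and G27D. In an edgeR fit over all 12 libraries, added after the data were seen, G27D differed from shRPL3 in 2 of 7 regions (28.6%), the 5'ETS at 0.41 (adjusted p = 0.0183) and ITS2 at 0.26 (adjusted p = 0.0183). Its 3'ETS did not pass (0.30, SE 0.15, adjusted p = 0.149). The 3'ETS was lower than in shRPL3 in R161W (-1.22, adjusted p = 5.51e-04), T189M (-1.86, adjusted p = 3.62e-05) and D308N (-0.94, adjusted p = 0.00145), among 3 (42.9%), 5 (71.4%) and 5 (71.4%) regions called. D308N was higher at ITS2 (0.51, adjusted p = 5.91e-04), the 5'ETS (0.39, adjusted p = 0.00624) and ITS1 (0.27, adjusted p = 0.0244).

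RPL3, the target of the hairpin, was read in the whole-cell libraries, which are separate samples. It was at 445, 439 and 673 TPM in RPL3L-WT 1 to 3, 723, 727 and 449 in G27D, 1059, 1686 and 1570.1 in R161W, 780, 802 and 1246 in T189M, and 680, 714 and 691 in D308N. Every library of D308N, T189M and R161W was above all of RPL3L-WT. For D308N the gap was narrow, with its lowest at 680 TPM against 673 for the highest of RPL3L-WT. Wherever a line held both kinds of library, RPL3 was lower in the second kind, told by construct transcripts (below). D308N had only the first kind, so these comparisons mix kinds. RPL3L was at 2791 to 3798 TPM in RPL3L-WT, 3627 to 4189 in G27D, 2672 to 3373 in R161W, 2145 to 3055 in T189M and 4951 to 5198 in D308N. Whether these levels bear on the spacer shares was not tested.

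The mRNAs of the proteins that make and cut the precursor were read in the same whole-cell libraries, from 4 lists with 89 genes, all measured. D308N had 52 of them higher and 1 lower (59.6% of the list), against 33.2% of all 14426 genes called, 23.7% as higher and 9.48% as lower. On the log2(TPM + 1) scale, where low genes appear to change less than they do, the list median was 0.31 and that of all genes 0.13. With median-ratio scaling between libraries 37 were higher and 2 lower, with a list median of 0.15, against 31.8% of all genes called, 15.4% as higher and 16.4% as lower. By list, 7 of 15 genes of the RNA polymerase I machinery rose, 21 of 33 of the small-subunit processome rose and 1 fell, 9 of 14 of ITS1 cleavage and late 18S maturation rose, and 15 of 27 of ITS2 cleavage and the exosome rose. NOB1, the nuclease that makes the 3' end of 18S, was at 119.9 ± 0.106 TPM in D308N and 75.6 ± 5.70 in RPL3L-WT (SD, n = 3; 0.66, limma adjusted p = 5.14e-07), and its partner PNO1 was higher by 0.66. EXOSC1 and EXOSC4, subunits of the exosome, were higher by 0.92 and 0.85. POLR1H, a subunit of RNA polymerase I, and TAF1C, a subunit of its promoter factor, were higher by 0.72 each. EMG1, a methyltransferase of 18S, and RRP9, a protein of the U3 particle, were higher by 0.80 and 0.76. MPHOSPH10, named because it was the single gene called lower, was at -0.35 (adjusted p = 0.0286). Single left-out libraries ended the calls of EXOSC1 (RPL3L-WT 2), EMG1 (RPL3L-WT 1) and MPHOSPH10 (RPL3L-WT 1 or 2 or D308N 2). RPL3L-WT 1 and 2 belong with 4 other libraries of these lines to a second kind, told by the ratio of 2 construct transcripts, which D308N lacks. With a term for kind D308N again had 53 calls, 52 higher and 1 lower, the latter in the RNA polymerase I list. Of all 14426 genes 30.3% were then called, 2523 as higher and 1844 as lower. The list median with this term was 0.27 and that of all genes 0.04. The values then were 0.58 for NOB1, 0.53 for PNO1, 0.36 for EXOSC1, 0.68 for EXOSC4, 0.43 for POLR1H, 0.31 for TAF1C, 0.29 for EMG1 and 0.62 for RRP9. All of these passed the threshold by choice, since only genes called with the kind term too were named. MPHOSPH10, named outside that rule, was at -0.13 and did not pass (limma adjusted p = 0.262).

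R161W had 12 of 89 lower and 0 higher, against 16.7% of all genes called and 4.07% as lower, with a list median of -0.15 against 0.10. The 12 included RBM28 (-0.42), a nucleolar RNA-binding protein, PES1 (-0.35), of the complex that acts at ITS2, UTP11 (-0.41) and UTP23 (-0.41) of the processome, POLR1G (-0.44) of RNA polymerase I, EXOSC2 (-0.36) of the exosome and TSR1 (-0.15), a late factor of the small subunit. Of these 7, only RBM28 and PES1 kept the call whichever single library of R161W or RPL3L-WT was left out. With median-ratio scaling 40 of the 89 were lower and 0 higher (D308N then had 39 called), and 17.2% of all genes were called, 8.49% as higher and 8.69% as lower, against 12.6% as higher without it. With the kind term 36 were lower and 1 higher, against 25.0% of all genes called and 8.87% as lower. G27D had 2 of 89 higher, against 3.32% of all genes called and 1.55% as higher: POLR1C, a subunit shared by RNA polymerases I and III, at 0.51 (adjusted p = 4.05e-04) and RRP9 at 0.37 (adjusted p = 0.0188; lost without RPL3L-WT 1 or 2 or G27D 1 or 2), and 18 higher with the kind term, against 10.3% of all genes called and 4.31% as higher. T189M had 0 of 89 by limma, against 1.80% of all genes, with 7 at an unadjusted p under 0.05 and 6 called with the kind term, against 10.6% of all genes. Of the lines called higher in spacers over mature regions, D308N thus had 52 of the 89 genes called higher, against 23.7% of all genes. R161W had 12 called lower, against 4.07% of all genes, and G27D 2 called higher, against 1.55%. A link of these mRNAs to the spacer shares was not tested.

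**Figure D5:**
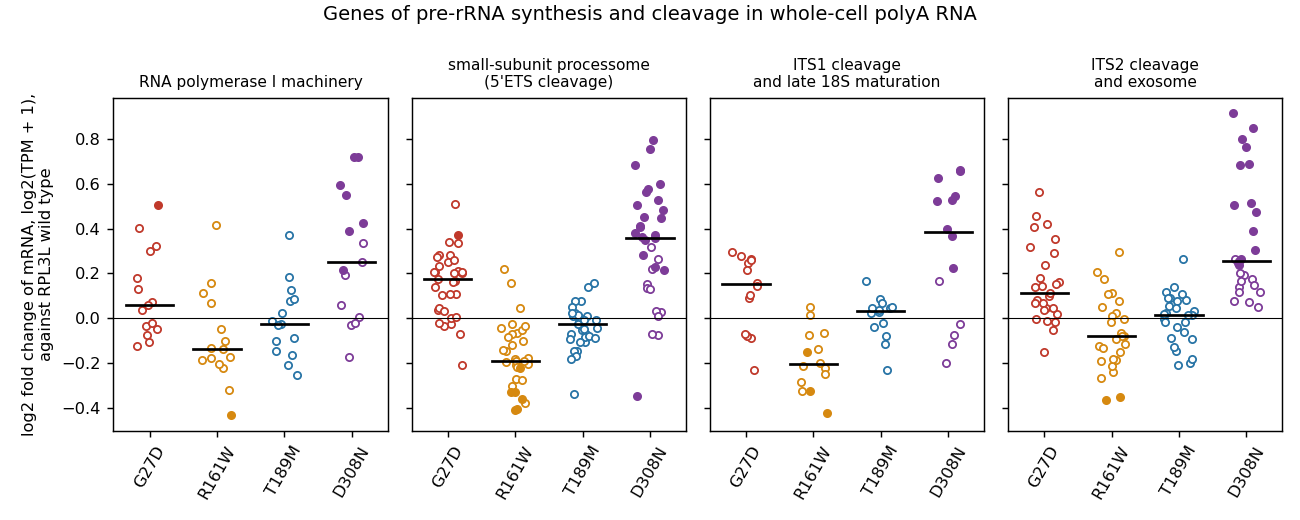
Log2 fold change of each gene of the 4 lists in whole-cell polyA RNA of each variant line against RPL3L-WT, on the log2(TPM + 1) scale; filled points have a limma adjusted p under 0.05 and black bars are list medians. D308N has 52 filled points above 0 and 1 below, G27D has 2 above, R161W has 12 below and T189M has none.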

How the data were processed

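The authors deposited counts per region of a 45S pre-rRNA reference for nuclear RNA, and TPM per gene for whole-cell polyA RNA, used as deposited. Per the submitters' processing notes the tools were bcl2fastq 2.19, Bowtie, bedtools and kallisto. What each tool did, and whether a pair of reads counted once, is not given in the sources. All value columns matched a labelled library, leaving 0 unmatched. Lines of 2 nuclear libraries were compared with edgeR 4.0.16 (glmQLFit and glmQLFTest, R 4.3.3) on the deposited counts. The library size was the sum over the 7 regions and the spread was shared by the 5 lines. Tests were two-sided, with Benjamini-Hochberg adjustment over the regions of a comparison (over all 42 tests between variants) and a threshold of 0.05. Ratios of counts per base were tested by exact permutation over 945 groupings, adjusted over 16 ratios, and, as a test added after the data were seen, with limma 3.58.1. Positions came from RefSeq's GRCh38.p14 table, whose gene length equals the sum of the regions. The build behind the counts is not given in the sources used here.

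TPM were taken as log2(TPM + 1), genes with a mean of at least 1 TPM over the 30 whole-cell libraries were kept (14426 of 60606), and limma (trend and robust eBayes) was fitted over 10 groups. The depth of the whole-cell libraries is unknown, since TPM do not keep it. A library was of the second kind where the ratio of its EBFP2 to rtTA3 transcripts was above 1.2. The text names all regions, RPL3 and RPL3L, and up to 2 genes per list and variant with the largest change among those called with and without the kind term and with groups that do not overlap. Members, lists and tests were chosen with earlier results of these data known. Alternatives were TMM, DESeq2 1.42.0, shares of spacer counts, all 12 nuclear libraries, regions of at least 200 bases, a replicate block and leaving out libraries or lines. DESeq2 used its own size factors, a separate dispersion for each region without shrinkage, and a Wald test. For TPM the alternatives were another pseudocount, no filter, median-ratio scaling and the kind term. The edgeR fit was tried on simulated counts with a single region changed at a time, unlike G27D and D308N, where most regions differed. The limma fit of TPM was tried on simulated TPM, and the limma fit of ratios was not tried on simulated data. Figures were drawn with matplotlib 3.10.9 in Python 3.11.15 (numpy 2.4.6, pandas 2.3.3, scipy 1.17.1).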

Additional observations from a re-analysis of the deposited data

How the results depend on the processing

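Shares depend on the total they are taken of. Of the 14 region calls against RPL3L-WT, 14 kept call and direction with all 12 libraries and with regions of at least 200 bases, 11 with TMM, 10 with DESeq2's size factors and, of the 11 spacer calls, 5 as shares of spacer counts. Left-out libraries kept 11 to 14. The calls fell to 1 in R161W, 3 in D308N, 1 for the mean of the variants and 15 between variants as shares of spacer counts, and T189M had 1 with DESeq2 and 1 with 12 libraries. As log2 values, 18S turned to -0.0593 (TMM) and -0.35 (DESeq2) in G27D, and with DESeq2 to -0.46 in D308N and -0.35 for the mean. With DESeq2, ITS2 turned to -0.0774 in G27D and -0.0807 in R161W. As shares of spacer counts, ITS2 turned to -0.40 in G27D, -0.19 in R161W, -0.23 in D308N and -0.18 for the mean, and the 3'ETS to -0.17 in D308N. Between variants, 18S turned to 0.0212 (TMM) and 0.0086 (DESeq2) in R161W against G27D, to 0.0344 and 0.0894 in T189M against G27D, and to -0.10 and -0.20 in D308N against T189M. There 5.8S turned to -0.31 (DESeq2). ITS2 turned to 0.15 (DESeq2) and 0.50 (spacer shares) in T189M against G27D. As shares of spacer counts it turned to 0.21 in R161W against G27D, -0.0413 in D308N against R161W and -0.33 in D308N against T189M, and ITS1 to -0.014 in D308N against R161W. These flips follow from the change of total.

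With each library left out in turn, regions called ranged from 5 to 7 in G27D, 1 to 4 in R161W (1 without R161W 1), 0 to 1 in T189M, 4 to 6 in D308N and for the mean, and 20 to 26 between variants. Ratios called by limma ranged from 12 to 14 in G27D, 0 to 9 in R161W (0 without R161W 1, 2 without R161W 2, 9 without D308N 1 or 2), 0 to 5 in T189M and 10 to 11 in D308N. The permutation test gave 4 ratios without G27D and 4 without R161W, against 11 to 13 without another line. With 105 groupings its smallest possible p was 0.00952, and several ratios missed at an adjusted p of 0.0508 in both. All spacers over all mature missed so without R161W, where the lines took up 0.976 of its spread, against 0.974 with all lines. The cause of the lower counts was not tested. Replicate numbers did not pair the libraries: the deviations of same-numbered libraries correlated at -0.80 to 0.51 over 10 pairs of lines. With the replicate number as a block, 6, 2, 0 and 5 regions were called in G27D, R161W, T189M and D308N, 4 for the mean, 23 between variants, and 11 ratios; pathway gene calls were 2, 11, 0 and 53.

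Pathway genes called were 18 in G27D, 37 in R161W and 6 in T189M with the kind term, and 4, 40 and 1 with median-ratio scaling (39 in D308N), which moved the median of all genes by -0.11 in R161W and -0.13 in D308N. With libraries left out they ranged from 1 to 23 in G27D (23 without RPL3L-WT 3, 17 without G27D 3), 5 to 20 in R161W (20 without RPL3L-WT 3 or R161W 1, 5 without R161W 2), 0 to 1 in T189M and 38 to 59 in D308N. Depth limits little, since counting error lies far under the spread between replicates, and 2 libraries a line limit the precision.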
